A study of Mus musculus with 2 samples.

Results

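The genes described here encode matrix metalloproteinases (Mmp), the membrane-anchored disintegrin metalloproteinases (Adam), the secreted Adamts proteases, the Adamts-like proteins (Adamtsl) and the tissue inhibitors of metalloproteinases (Timp). They were taken by name: every probe set whose single gene symbol consists of one of these 5 family prefixes, a number and at most 1 further letter. This gave 124 probe sets for 70 genes, of 18193 genes named on the array. RNA was compared between 2 cultures of mouse embryonic fibroblasts (MEFs), cells grown out from embryos. One carried intact Fut8 (Fut8+/+), the other was homozygous for the disrupted gene (Fut8-/-), and both were kept in medium with fetal calf serum. Fut8 is the fucosyltransferase that attaches core fucose to the stem of N-glycans on secreted and membrane proteins. Each genotype is represented by 1 array, so nothing below has a replicate check, genotype cannot be tested and p-values are left out; having so few arrays limits how precise any value is. The design text speaks of 3 dishes per genotype, and the sources used here do not say whether RNA was pooled from them or how many embryos each culture came from.

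Matrix metalloproteinases are zinc enzymes that cut collagens, gelatin, proteoglycans and many surface proteins. They are made as inactive precursors. Adam proteins shed growth factors and receptors from the cell surface, whereas Adamts proteases act on proteoglycans, procollagens and other matrix proteins. The Adamtsl proteins share the matrix-binding domains of the latter but have no protease domain. Timp proteins bind and block the active site, and fibroblasts are a main source of both proteases and inhibitors in connective tissue. In published work on mice without Fut8, raised metalloproteinase expression was described in the lung, which makes these families a natural point of comparison in cells of the same genotype.

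Signals are given as deposited, on a linear scale. Ratios are Fut8-/- over Fut8+/+ on the log2 scale, after the arrays were centred on each other by a factor of 1.16 and signals under 12.3 were raised to that floor. Where 1 array lay at the floor, the fold is a lower bound and is written as "at least". A gene counted as measured where its brightest probe set reached 39.1 on the brighter array, and as higher or lower where the ratio was 2-fold or more. Fut8 itself had a signal of 190.9 in Fut8+/+ and of 11.7 in Fut8-/- at its brightest probe set. Transcripts of the sex chromosomes separated the cultures as well, with Eif2s3y, Kdm5d and Uty of the Y chromosome at least 38.9-fold higher in Fut8-/- and Xist 37.2-fold lower. Genotype, sex-linked differences and any other difference between these 2 cultures cannot be told apart.

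Of the 70 genes, 26 were measured. Among these, 4 were at least 2-fold lower in Fut8-/-: the gelatinase gene Mmp2, Mmp23, Adam12 and Adam19. A further 2 were at least 2-fold higher, Adamtsl3 and Adamtsl4, and 20 lay within 2-fold, beside 8686 of all 10164 measured genes. Lower genes thus made up 15.4% of the measured members, beside 8.46% of all 10164 measured genes, and higher genes 7.69% beside 6.08%. The lower count is small: with 2 genes fewer its share would be under the background. The members' median log2 ratio was -0.36, beside 0.00 for all measured genes, and 17 of the 26 had a ratio below 0, or 65.4% against 49.9% of all measured genes. Without centring, which moves the median of all genes to -0.23, the counts were 8 lower and 2 higher, beside 11.8% and 4.08% of all measured genes. The 4 genes added were Adam9, Adamts5, Adamts12 and Timp1.

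**Figure D1:**
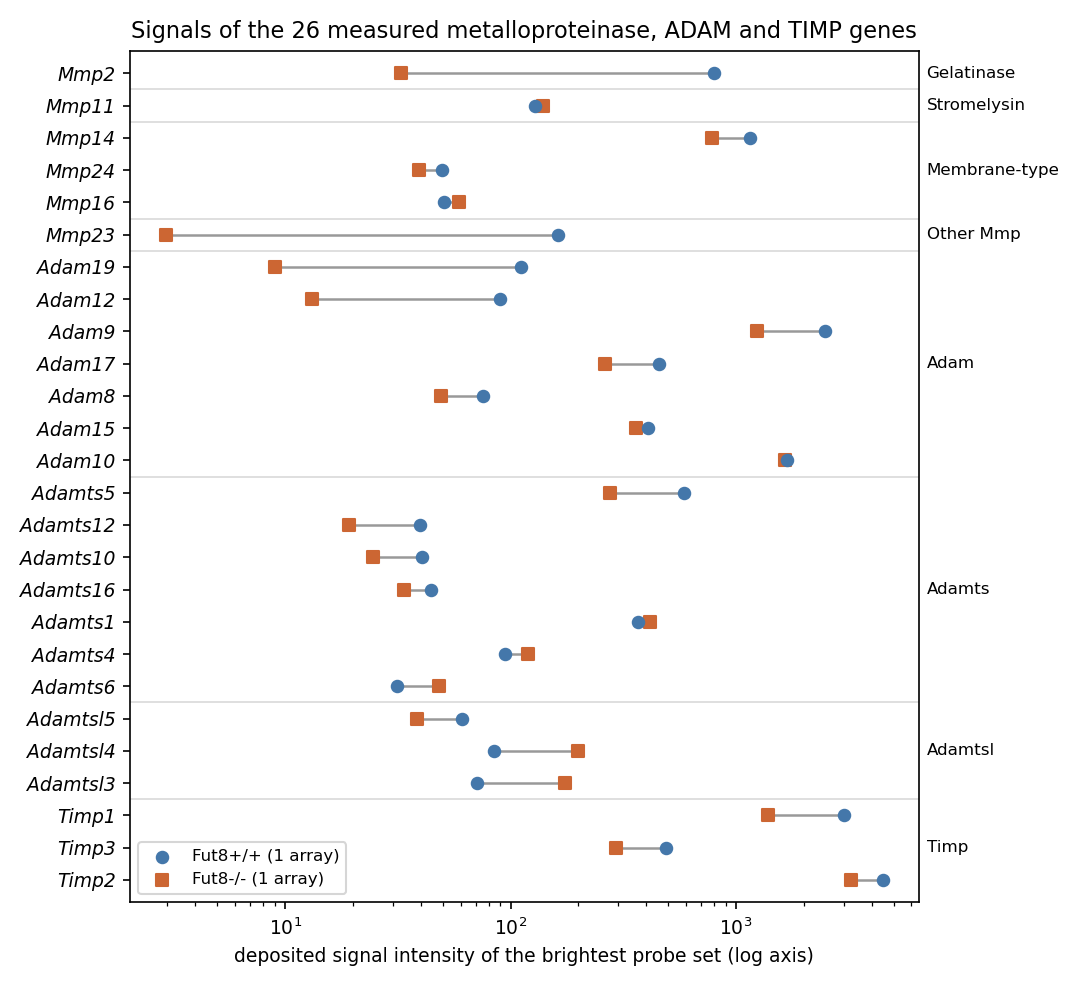
Deposited signal intensity (log axis) of the brightest probe set of each of the 26 measured genes, with circles for the Fut8+/+ array and squares for the Fut8-/- array, grouped by subfamily. The longest distances, all towards a lower Fut8-/- signal, are those of Mmp2, Mmp23, Adam19 and Adam12, whereas Adamtsl3 and Adamtsl4 run the other way.

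**Figure D2:**
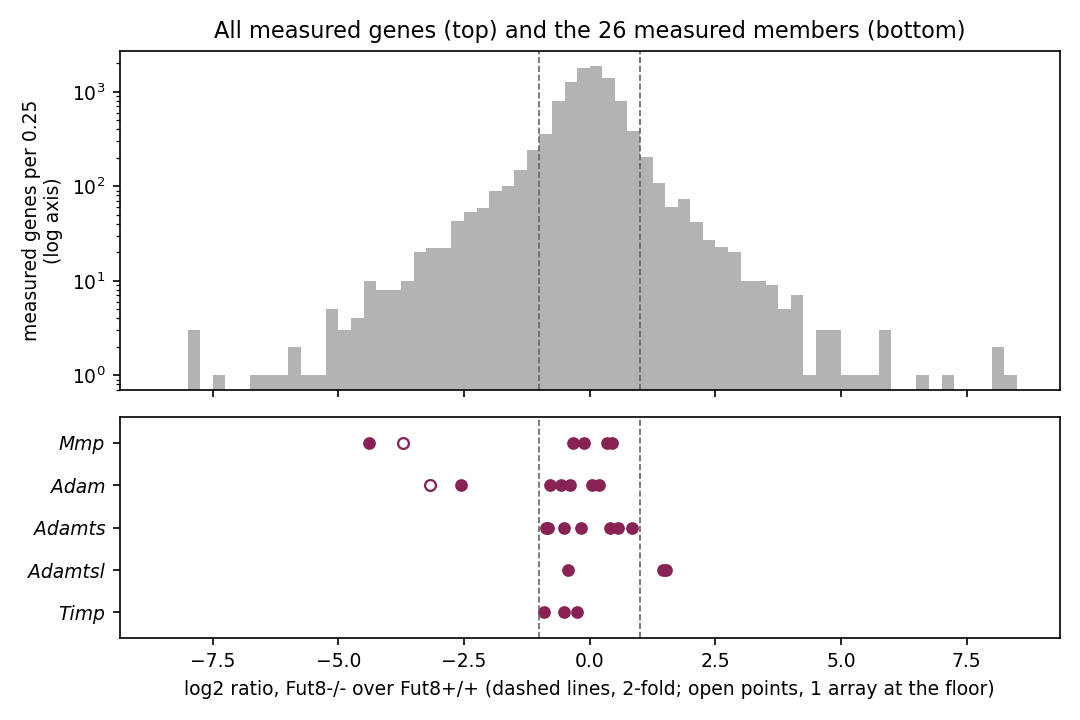
Centred and floored log2 ratios of all 10164 measured genes as a histogram with a logarithmic count axis (top) and of the 26 measured members, 1 point per gene and 1 row per family (bottom). Most members lie in the bulk of all genes between the dashed 2-fold lines, with 4 Mmp and Adam genes in the lower tail and 2 Adamtsl genes above the upper line.

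Among the gelatinases, Mmp2 stood far apart between the arrays, and of the members above the floor on both it had the largest ratio. Its protein, gelatinase A, cuts denatured collagen and basement membrane collagen and is made in quantity by fibroblasts. Its brightest probe set gave 798.9 in Fut8+/+ and 32.7 in Fut8-/-, a log2 ratio of -4.39 or 21.0-fold. The second probe set gave 750.7 and 32.01, 20.2-fold lower, so the pair of probe sets differed by far less than the genotypes. Of 9908 measured genes above the floor on both arrays, 12 had a ratio below that of Mmp2. In whole cultures such as these, fewer cells that express a gene and less RNA per cell cannot be told apart. The other gelatinase gene, Mmp9, was below the measured limit, with signals of 19.5 and 16.6.

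Activation of the Mmp2 precursor at the cell surface is known to need the membrane-type enzyme Mmp14 and the inhibitor Timp2 as its bridge. Neither differed from Fut8+/+ by as much as 2-fold. Mmp14 had signals of 1152 and 783 (log2 ratio -0.34), and its other 2 probe sets gave ratios of -0.33 and -0.20. Of the remaining membrane-type genes, Mmp16 had signals of 50.5 and 59.3 (0.45) and Mmp24 of 49.6 and 39.3 (-0.12). The ratio of Mmp24 took the other sign at its second probe set (0.24). Mmp17 was below the limit, at 19.3 and 6.53.

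Mmp23, an atypical metalloproteinase that is anchored in the membrane by its amino-terminal part, had signals of 162.4 in Fut8+/+ and 2.96 in Fut8-/-, at least 13.2-fold lower. Its second probe set, with 136.3 and 3.52, gave at least 11.0-fold. The Fut8-/- signals of both probe sets were below the floor, so the data give no size beyond these bounds. The stromelysin-3 gene Mmp11, whose product is activated inside the cell by furin, lay close together on the arrays at 127.9 and 139.2 (0.34).

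The remaining Mmp genes were dim on both arrays. None of the 4 collagenase genes lay above the floor on either array: Mmp1a had signals of 5.29 and 0.409, Mmp8 of 1.58 and 4.50, and Mmp13, the main interstitial collagenase of the mouse, of 0.281 and 4.35. Mmp1b was also under the floor. The stromelysin gene Mmp3 had signals of 9.84 and 7.00, Mmp10 of 11.7 and 20.4, and the macrophage elastase gene Mmp12 of 9.43 and 1.25. At these signals the arrays give no ratio that can be read as a difference, and none of these genes is shown to be absent. The matrilysin gene Mmp7 was the brightest Mmp gene below the limit, with signals of 27.6 and 4.27 and a bound of at least 2.23-fold.

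Most of these dim genes are neighbours. All 9 Mmp genes of chromosome 9 that have a probe set here (Mmp1a, Mmp1b, Mmp3, Mmp7, Mmp8, Mmp10, Mmp12, Mmp13 and Mmp20) did not reach the measured limit on either array. Many genes of this cluster are known to be switched on by growth factors and cytokines through AP-1, the Fos and Jun factor, near a TATA box. The 120 bases before the RefSeq transcript start of 4 of them (assembly GRCm38.p6, written along the gene's strand) are shown for what they share; capitals mark matches to the AP-1 motif TGANTCA and the TATA motif TATAAA.
Mmp1a, chr9:7464021-7464140, plus strand: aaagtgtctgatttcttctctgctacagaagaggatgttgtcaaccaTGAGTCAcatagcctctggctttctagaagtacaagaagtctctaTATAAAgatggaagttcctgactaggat
Mmp3, chr9:7445702-7445821, plus strand: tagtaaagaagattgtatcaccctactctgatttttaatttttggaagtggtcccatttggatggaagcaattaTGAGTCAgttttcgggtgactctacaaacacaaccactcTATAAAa
Mmp10, chr9:7502222-7502341, plus strand: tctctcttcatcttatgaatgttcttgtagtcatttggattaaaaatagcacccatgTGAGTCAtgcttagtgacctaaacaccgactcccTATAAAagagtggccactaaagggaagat
Mmp13, chr9:7272394-7272513, plus strand: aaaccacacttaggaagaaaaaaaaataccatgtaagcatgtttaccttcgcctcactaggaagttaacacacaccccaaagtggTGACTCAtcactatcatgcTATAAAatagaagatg

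Each of these 4 windows holds 1 match to each motif, with the AP-1 match upstream of the TATA match. For Mmp1a the matches begin 73 and 28 bases before the annotated start, for Mmp3 46 and 7, for Mmp10 63 and 29 and for Mmp13 35 and 16. A window was found by symbol for 41 of the 70 members, and for neither Mmp2 nor Adam12. Counting 250 bases before the start on both strands, with overlapping matches counted separately, AP-1 matches were present for 10 of the 41 members, in 10 of their 46 windows, and TATA matches for 11, in 11 windows. The share among all 32851 windows of that length was 6.75% for AP-1 and 12.4% for TATA. AP-1 matches were present for 1 of 17 measured and 9 of 24 unmeasured members, and TATA matches for 1 and 10. Over all genes with a window the shares were 5.07% (measured) and 8.91% (not measured) for AP-1, and 7.66% and 14.3% for TATA. In the chromosome 9 cluster Mmp8 had neither motif and Mmp12 had no TATA match. Both motifs together were present for 7 members: Mmp1a, Mmp1b, Mmp3, Mmp7, Mmp10, Mmp13 and Mmp20. None of these was measured, and the share of all genes with both motifs was not counted. Several of these genes arose by duplication and share sequence, so they are not independent cases.

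Another motif was more frequent among measured than among unmeasured members, as it was over all genes. The GC box, GGGCGG, which is read by Sp1 and related factors, was present for 14 of 17 measured members with a window and for 5 of 24 that were not measured. Over all genes with a window the same shares were 66.7% of 8321 measured and 35.3% of 6131 not measured. Capitals mark GC boxes, on either strand, in the windows of Mmp14, which was within 2-fold, of Mmp23, which was lower, and of Adamtsl3 and Adamtsl4, the 2 higher genes.
Mmp14, chr14:54431478-54431597, plus strand: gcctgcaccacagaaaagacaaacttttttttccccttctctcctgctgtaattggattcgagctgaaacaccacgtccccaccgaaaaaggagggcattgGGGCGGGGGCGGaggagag
Mmp23, chr4:155653385-155653504, minus strand: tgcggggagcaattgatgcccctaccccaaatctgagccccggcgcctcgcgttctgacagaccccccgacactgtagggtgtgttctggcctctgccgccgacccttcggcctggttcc
Adamtsl3, chr7:82335574-82335693, plus strand: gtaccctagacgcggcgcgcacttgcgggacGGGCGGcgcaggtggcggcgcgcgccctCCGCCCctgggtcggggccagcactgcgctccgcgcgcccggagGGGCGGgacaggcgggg
Adamtsl4, chr3:95687918-95688037, minus strand: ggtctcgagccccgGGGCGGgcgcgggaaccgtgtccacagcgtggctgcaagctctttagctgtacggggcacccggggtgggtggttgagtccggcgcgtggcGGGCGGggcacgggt

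Mmp14 has 2 adjoining GC boxes, 19 and 13 bases before its start. Within 120 bases Adamtsl3 has 3 and Adamtsl4 has 2, and Mmp23 has no match to any of the 3 motifs at either of its 2 annotated starts, which says only that these letters are not there. A match is a string of letters and was not tested as a binding site.

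Of the 28 Adam genes, 7 were measured. Adam12 (meltrin alpha), a protease of muscle and connective tissue precursors, had signals of 89.8 and 13.1, a 5.87-fold difference; of the 9908 genes above the floor on both arrays 82 had a lower ratio. Its second probe set was dimmer, with 19.1 and 0.702, and gave at least 1.54-fold lower. Adam19 (meltrin beta), which can shed neuregulin, had signals of 111.3 and 8.97, at least 9.02-fold lower, and its second probe set gave 29.2 and 7.07, at least 2.37-fold. Both probe sets of both genes were thus lower in Fut8-/-. Only the brighter one of Adam12 gave a size, since the Fut8-/- signal of the other 3 lay at the floor.

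The broadly acting sheddases were closer together. Adam10, which cuts Notch receptors and cadherins, had signals of 1676 and 1644 (log2 ratio 0.19), with 0.11 at its other probe set above the floor. Adam17, the enzyme that releases tumour necrosis factor and several ligands of the EGF receptor, had signals of 455.7 and 263.3. Its 3 probe sets gave ratios of -0.57, -0.39 and -0.22, all below 0 and all within 2-fold. Adam17 lies on chromosome 12, where the 740 probe sets brighter than the 40th percentile of each array had a median ratio of -0.34. Centred on that median, the Adam17 ratio was -0.24.

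Adam9, which sheds surface ligands in many tissues, had signals of 2470 and 1234, 1.72-fold lower at its only probe set, and -1.001 on the log2 scale without centring. Adam15, a disintegrin of endothelium and other cells, had 407.9 and 359.8 (0.04), and its other 3 probe sets gave ratios between 0.31 and 0.67. Adam8, best known from leukocytes, had 75.1 and 49.3 (-0.39). The other 21 Adam genes, many of them known from sperm and testis, were below the measured limit, 11 of them under the floor on both arrays; the brightest signal among them was 27.8.

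**Figure D3:**
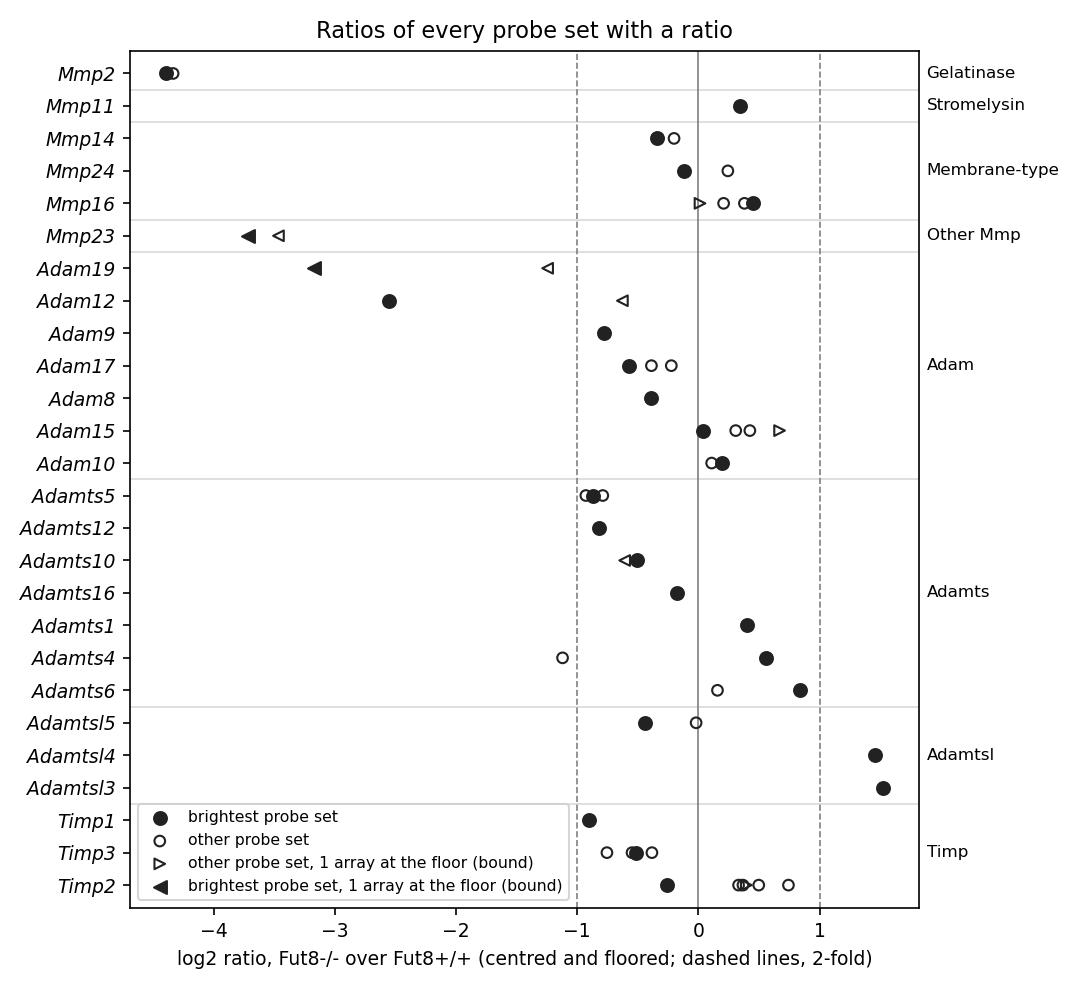
Centred and floored log2 ratio (Fut8-/- over Fut8+/+) of every probe set that was above the floor on at least 1 array, 1 row per measured gene, with filled symbols for the brightest probe set, open ones for the others and triangles for bounds. The pairs of probe sets of Mmp2 and of Mmp23 lie close together, whereas those of Timp2, Adamts4 and Mmp24 fall on both sides of 0.

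Agreement between probe sets of a gene is the only repeat measurement these data hold. It is technical and gives no error between cultures. Within a gene, log2 ratios of probe sets that cleared the floor in both cultures had an SD of 0.40, which is 1.32-fold (5389 genes with several such probe sets); over 13 of the measured members it was 0.34. Of 17 measured members with more than 1 ratio, all probe sets had the sign of the brightest for 14. The exceptions were Adamts4, Mmp24 and Timp2. All 6 genes at least 2-fold apart had 1 sign throughout, but Adamtsl3 and Adamtsl4 have only 1 probe set each.

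All 7 measured Adamts genes lay within 2-fold, as did 8686 of all 10164 measured genes. Adamts5, the main aggrecan-cutting enzyme of mouse cartilage, was the lowest of them, with signals of 588.2 and 276.1, 1.83-fold lower. Its other 2 probe sets above the floor gave 1.73-fold and 1.90-fold, so 3 probe sets stood close together just inside the limit. The ratio of Adamts5 passed 2-fold without centring (-1.09) and when the genes of its own chromosome served for centring (-1.03). Its neighbour on chromosome 16, Adamts1, which also cuts proteoglycans, had signals of 365.9 and 415.9, a ratio of 0.40 in the other direction.

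Adamts4, another aggrecanase, could not be given a direction. Its brightest probe set gave 94.6 and 119.98 (0.56), and its other one 34.0 and 13.4 (-1.12). Adamts12, a protease of cartilage oligomeric matrix protein, had 39.5 and 19.2 (-0.82), just above the measured limit, and Adamts10, a protein of fibrillin microfibrils, had 40.5 and 24.5 (-0.50). Adamts6, which is closely related to Adamts10, was 1.79-fold higher, with 31.4 and 48.3, and Adamts16 had 44.4 and 33.8 (-0.18). Both lie on chromosome 13, whose 772 probe sets of that brightness had a median ratio of 0.48. Centred on it, the ratios were 0.36 for Adamts6 and -0.66 for Adamts16.

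The Adamtsl genes contained the 2 members that were higher in Fut8-/-. Adamtsl3 had signals of 71.0 and 175.0, 2.87-fold higher, and Adamtsl4, which is found on fibrillin microfibrils and is needed to hold the eye lens in place, had 84.2 and 198.2, 2.74-fold higher. Of the 9908 genes above the floor on both arrays, 193 had a higher ratio than Adamtsl3 and 215 a higher one than Adamtsl4. Adamtsl3 lies on chromosome 7, where the median of 1368 such probe sets was -0.28, and its ratio was 1.80 when centred there. Adamtsl5 had signals of 60.7 and 38.4 (-0.44), and Adamtsl1 and Adamtsl2 were below the limit.

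Of the 4 inhibitor genes, 3 were measured, all within 2-fold, as were 8686 of all 10164 measured genes. Timp1, an inducible inhibitor of most Mmp enzymes, had signals of 3020 and 1388, 1.87-fold lower at its single probe set, and 2-fold was passed without centring (-1.12). The gene is on the X chromosome, whose 646 probe sets of that brightness had a median ratio of -0.02. Timp3, which is bound to the matrix and also blocks Adam17 and the aggrecanases, had 489.6 and 293.8, and its 4 probe sets ranged from -0.75 to -0.38.

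Timp2 could not be given a direction. Its brightest probe set had 4476 and 3219 (-0.26), whereas the other 5 gave ratios from 0.33 to 0.74, and the median over the 6 was 0.38. Timp4 was below the limit, at 16.8 and 12.0. The proteases and inhibitors named here are transcripts; enzyme activity and inhibition were not measured.

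The genes next to the 6 members that differed by at least 2-fold were looked up in the gene order of GRCm38.p6, taking the nearest 2 measured genes on each side; this was chosen after the members' values were seen. Of these 24 neighbours, 3 (12.5%) were at least 2-fold lower and 0 higher, beside 8.46% and 6.08% of all measured genes. Without centring 5 were lower, beside 11.8%. One was Lpcat2, an acyltransferase gene of phospholipid and platelet-activating factor synthesis and the nearest measured gene on one side of Mmp2, with signals of 205.4 and 15.4 (-3.52). On the other side of Mmp2, Irx5 had a ratio of 0.30. Hdgfl3, near Adamtsl3, was lower with 328.9 and 29.4 (-3.26), opposite to Adamtsl3 itself, and Thg1l, near Adam19, had 262.2 and 95.7 (-1.24). All 4 neighbours of Adam12, of Mmp23 and of Adamtsl4 were within 2-fold.

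Genes that act on these enzymes were read from 4 further lists, whose counts stand beside the same 8.46% lower and 6.08% higher over all measured genes. Plasminogen, cut to plasmin, is a classical activator of Mmp precursors. Of 10 listed genes of plasminogen activation 8 are named on the array, 4 were measured and 2 of these were lower: the urokinase gene Plau (67.2 and 16.8, 3.43-fold) and the tissue activator gene Plat (1005 and 336.7, 2.57-fold), whose second probe set had the other sign and whose median over both was -0.21. The urokinase receptor gene Plaur (-0.26) and the clearance receptor gene Lrp1 (-0.34) were within 2-fold. The list median was -0.85.

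Of 22 genes of precursor activation and surface control 16 were measured, 2 higher, 1 lower and 13 within 2-fold, with a median of 0.08. The lower one was thrombospondin-2 (Thbs2), a matrix protein that binds Mmp2 and delivers it to Lrp1 for uptake, with signals of 401.9 and 5.95, at least 32.6-fold. The higher ones were Tspan17 (107.9 and 215.4, 2.32-fold) and Tspan33 (19.95 and 38.3, 2.24-fold), tetraspanins that escort Adam10. Neither reached 2-fold without centring (0.997 and 0.942 on the log2 scale), and Tspan17 did not when centred on its own chromosome (0.74). The proprotein convertase gene Furin, which trims many Adam and membrane-type precursors, was at 204.6 and 188.4 (0.10), and Reck, a membrane-anchored inhibitor, was at 122.2 and 61.0 (-0.78, and just past 2-fold without centring).

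Of 7 genes of the related astacin proteases and their enhancers 3 were measured. Pcolce2, an enhancer of procollagen processing, was 3.72-fold higher (396 and 1265), and Bmp1, the protease it helps, was at 189.9 and 193.4 (0.24). Of 18 transcription factors known from metalloproteinase promoters 16 are named on the array and 13 were measured, 3 of them lower and 0 higher, with a median of -0.40. Jun had signals of 533.3 and 136.0 (3.37-fold lower), the immediate-early gene Egr1 2345 and 600.2 (3.36-fold) and the Ets family gene Etv5 112.0 and 32.6 (2.95-fold, with a median of -0.58 over its 3 probe sets). Fos, the partner of Jun in AP-1, was at 136.1 and 225.8, a ratio of 0.95 in the other direction. Centred on its own chromosome, 12, the Fos ratio was 1.29, which is past 2-fold. Sp1 had a ratio of -0.40.

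Both cultures had strong signals for Col1a2 and Vim. Of 15 fibroblast markers 11 were measured, 4 of them lower (Col1a1, Fn1, Pdgfra and Prrx1) and 1 higher (Pdgfrb), with a median of -0.36. The counts of this and the following marker lists stand beside 8.46% lower and 6.08% higher over all measured genes. Prrx1 was at least 17.9-fold lower (221.3 and 7.26), Fn1 3.25-fold, Col1a1 2.59-fold and Pdgfra 2.26-fold lower, and Pdgfrb 2.13-fold higher. Pdgfrb was within 2-fold without centring (0.87), and Col1a1 and Pdgfra were so with the median over probe sets (-0.92 and -0.51). Summed over a list after the Fut8-/- array was scaled by 1.16, which weights the brightest probe sets most, the fibroblast signals came to 45191 in Fut8+/+ and 44023 in Fut8-/-. These sums rest mostly on Vim, Col1a2 and S100a4, each within 2-fold, and so do not show the markers that differed. Thy1, Dcn, Lum and Fap were below the limit on both arrays. Of 5 smooth muscle markers 3 were measured and 2 lower (Tagln and Des), with summed signals of 361.2 and 131.7; the defining Myh11 and Cnn1 were below the floor. Of 8 macrophage and leukocyte markers 2 were measured, both within 2-fold, with summed signals of 250.5 and 179.3, and Ptprc was below the floor. Of 7 epithelial markers Krt19 was at least 14.6-fold higher and Epcam lower, with Cdh1 below the floor. The epithelial sums were 111.3 and 275.6, of which Krt19 alone gave 2.08 and 180.8. Epcam did not reach 2-fold with the floor at the 60th percentile (a bound of -0.20) or with the median over probe sets (-0.64). Of 5 endothelial markers only Eng was measured, at 52.0 and 62.1 (0.47), and the sums over all 5 were 119.3 and 119.6. The part of these differences in the values of the metalloproteinase genes was not tested.

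The 4 lower and 2 higher genes were called alike under 8 of the 9 other ways of processing that were tried. The exception was a measured limit at the 75th percentile, under which Adam12 and Adam19 were no longer measured. Sizes that rest on the floor moved most: with the floor at the 60th percentile the bounds were -2.05 for Mmp23, -1.51 for Adam19 and -1.20 for Adam12. With the floor at the 20th percentile these genes were above it on both arrays, and the ratios were -5.56, -3.41 and -2.55.

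**Figure D4:**
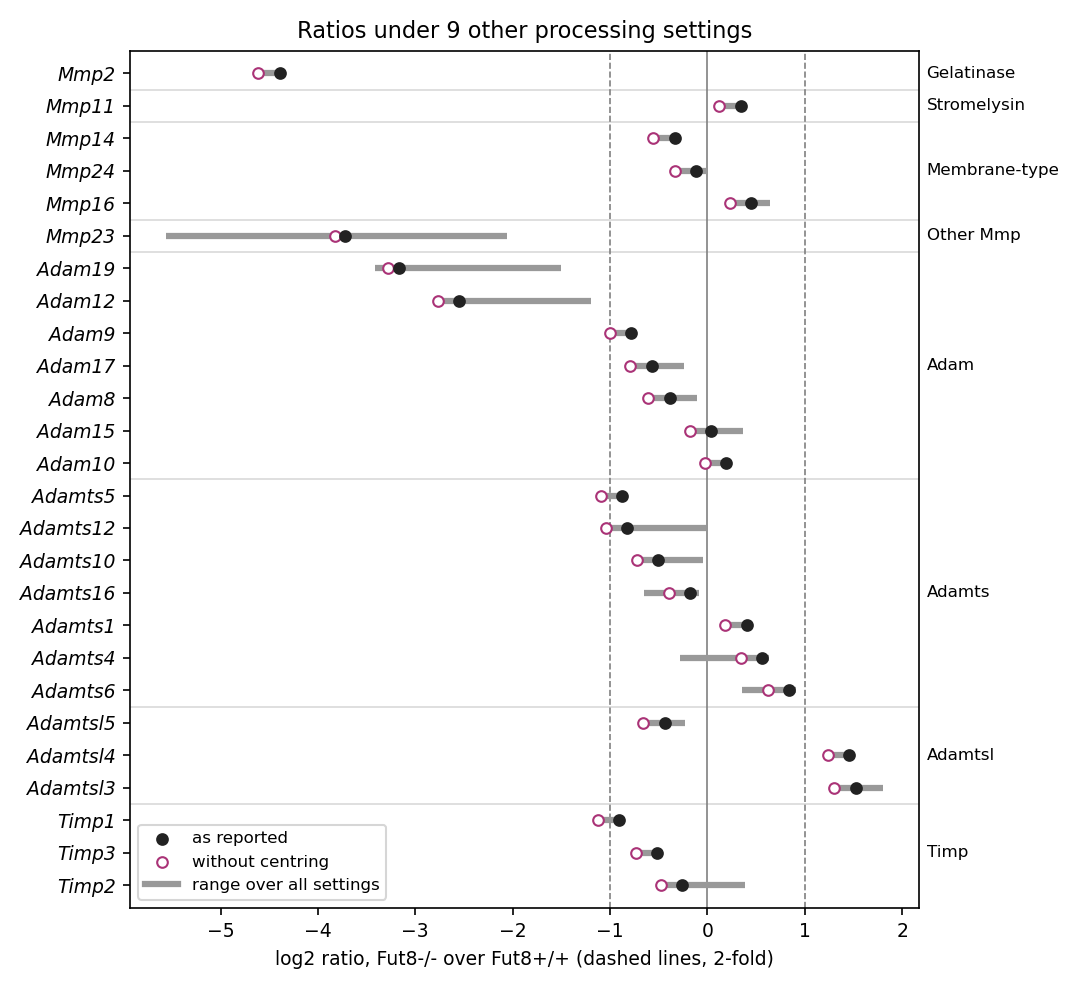
Log2 ratio (Fut8-/- over Fut8+/+) of each measured gene as reported (filled), without centring (open) and its range over all settings (grey bar), with dashed lines at 2-fold. Mmp2, Adamtsl3 and Adamtsl4 stay on their side of the lines with short bars, and Adam9, Adamts5, Adamts12 and Timp1 cross the lower line without centring.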

How the data were processed

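Total RNA of 1 Fut8+/+ and 1 Fut8-/- MEF culture was labelled with biotin and hybridised to an Affymetrix mouse array. The values are linear signal intensity values as the authors deposited them, 1 per array for each of 45101 probe sets. GCOS, the Affymetrix GeneChip Operating Software, is named in the submitters' processing notes; the sources used here give no version, signal algorithm, scaling target or detection call. The median signals were 20.5 (Fut8+/+) and 16.9 (Fut8-/-), so the arrays do not share a common median, and how they were scaled to each other is unknown.

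Names came from the platform annotation, with 1 symbol for 34945 probe sets (the ones used), several for 932 and none for 9160, beside 64 controls. All 70 member symbols matched the gene table of GRCm38.p6, which holds 15 further genes of these names that have no probe set of their own here. Log2 ratios were centred on the median (-0.22) of probe sets brighter than each array's own 40th percentile, and scaled signals were floored at the 40th percentile of both arrays pooled. The measured limit was the 60th percentile, and the probe set with the highest mean log2 signal stood for a gene. Signals of different probe sets are not comparable as levels. Promoter windows are RefSeq starts.

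Every measured member was named, with a fixed set of dim Mmp genes and, outside that set, some further dim members such as Mmp7, Mmp17 and Timp4. Related genes were named at 2-fold or more, or among the largest of a list. Furin and Sp1 were named outside this rule. The members, lists, limits and settings were chosen with earlier results of these data known. Alternatives were no centring, quantile normalization, loess (span 0.4), centring by chromosome, floors at the 20th and 60th percentiles, a limit at the 75th percentile or none, and the median over probe sets. The steps were tested on simulated data and recovered changes well past 2-fold put into bright genes. Calls near the floor or near 2-fold were not tested in this way. Python 3.11.15, pandas 2.3.3, numpy 2.4.6, statsmodels 0.14.6 and matplotlib 3.10.9 were used.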

Additional observations from a re-analysis of the deposited data

How the results depend on the processing

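Without centring 8 members were at least 2-fold lower, in place of 4, because the Fut8-/- signals are then not multiplied by 1.16; with the measured limit at the 75th percentile 2 were, because 15 members in place of 26 were measured. Under the other 7 settings the count of lower members was 4 or 5, and the count of higher members was 2 or 3 under all 9. Centring by chromosome brought in Adam4 as a higher gene and Adamts5 as a lower one, and without a measured limit Mmp7 was added as a lower one. The members' median ratio ranged from -0.58 without centring to 0 without a measured limit, where the 25 members under the floor on both arrays enter with a ratio of 0. The ratios of the 6 genes at least 2-fold apart kept their sign under all 9 settings. Among the genes within 2-fold, those of Timp2 and Adamts4 changed sign with the median over probe sets (0.38 and -0.28), those of Adam10 and Adam15 without centring (-0.03 and -0.18), and that of Adam15 also with centring by chromosome (-0.16). The median over its probe sets put Mmp24 at 0. For the related genes, markers and neighbours the same settings were chosen after seeing the data. No related gene or marker that was called changed sign, but several calls were lost. With the floor at the 60th percentile the bounds of Plau (-0.78), Tspan33 (0.19), Pdgfra (-0.66), Epcam (-0.20) and Des (-0.52) did not reach 2-fold. With the limit at the 75th percentile these genes and Etv5 were not measured. The median over probe sets put Tspan33 at 0.92. No paired analysis was possible because each genotype has 1 array. With 1 array per genotype no array could be left out. Dim probe sets are a further limit: 44 members, among them all 4 collagenase genes, were too dim to be compared.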

Other observations

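Some probe sets that read these families fall outside the naming rule. Of 4 probe sets shared by Adam1a and Mapkapk5, the brightest had signals of 52.6 in Fut8+/+ and 45.3 in Fut8-/-, a log2 ratio of 0.00, and it cannot be assigned to either gene. The probe set shared by Adam6a and Adam6b had 9.19 and 18.7. Adamdec1, a related gene of dendritic cells and gut, had 12.8 and 1.41, and both values lie near or under the floor of 12.3.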
